A study of Homo sapiens with 6 samples.

Results

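The cancer-testis antigen families examined here were the protein-coding genes whose symbols begin with MAGEA, MAGEB, MAGEC, GAGE, XAGE, PAGE, SSX or CTAG followed by a number. This rule took 62 genes out of 62696 gene entries, 19849 of them protein-coding in GENCODE 29. Symbol and gene type alone set the membership. The set was selected on earlier results of this same contrast, with MAGEA10 as the gene that marked it, so the fold changes and adjusted p-values below describe the members and are not independent evidence. One gene, SSX2IP, met the rule by its symbol but encodes a centrosomal protein on chromosome 1 that binds SSX2, so counts are given with it and without it (61 genes, all on the X chromosome). Another 12 gene entries with such symbols were pseudogenes, antisense or divergent transcripts and were not members.

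The libraries came from C4-2, a castration-resistant human prostate cancer line derived from LNCaP, grown in RPMI medium with serum and left untreated. Total RNA was sequenced in 3 libraries of the vector control line, labelled VEC with a wild-type genotype, and in 3 libraries of a CRISPR-Cas9 line labelled CDK12KO with a CDK12 knockout genotype. CDK12 is a kinase that phosphorylates RNA polymerase II and supports the transcription of long genes. The labels give neither the guide nor whether the knockout line was 1 clone or a pool, so a change that came with the line's selection and a change that came with the loss of CDK12 cannot be told apart. Nothing says that the libraries of a group came from separate cultures, and the p-values then measure the variation among libraries, possibly technical.

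Cancer-testis antigens are proteins normally made by germ cells and placenta whose genes are reactivated in many tumours, where T cells can recognise them. Most of the families lie in repeated arrays on the X chromosome, and DNA methylation of their promoters keeps them silent in most adult tissues. MAGE proteins assemble with RING-type ubiquitin ligases, the SSX proteins are known as fusion partners of SS18 in synovial sarcoma, and CTAG1 and CTAG2 encode NY-ESO-1 and LAGE-1, targets of T-cell therapy.

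Because many members are near copies of one another, the same stretch of coding sequence is printed for the 8 MAGEA genes that had enough reads to be tested, 72 bases 5′ to 3′ from the GENCODE 29 transcripts. Capitals mark each base that differs from MAGEA3. Among gap-free stretches of the alignment, the printed one had the most distinct sequences and then the fewest differences from MAGEA3. It therefore shows these genes as more alike than their whole coding sequences are. The stretch covers coding positions 343 to 414 of MAGEA3, counted from the A of the start codon.
MAGEA3: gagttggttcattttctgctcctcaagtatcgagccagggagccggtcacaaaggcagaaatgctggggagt
MAGEA6: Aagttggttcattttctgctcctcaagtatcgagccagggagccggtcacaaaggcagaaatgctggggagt
MAGEA2: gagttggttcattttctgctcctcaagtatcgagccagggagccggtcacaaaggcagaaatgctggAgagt
MAGEA2B: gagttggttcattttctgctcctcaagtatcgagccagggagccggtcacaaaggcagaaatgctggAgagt
MAGEA12: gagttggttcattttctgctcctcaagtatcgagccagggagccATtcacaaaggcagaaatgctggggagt
MAGEA1: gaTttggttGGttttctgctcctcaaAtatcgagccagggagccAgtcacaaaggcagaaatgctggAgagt
MAGEA4: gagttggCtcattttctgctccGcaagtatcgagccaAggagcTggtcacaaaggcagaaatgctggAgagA
MAGEA10: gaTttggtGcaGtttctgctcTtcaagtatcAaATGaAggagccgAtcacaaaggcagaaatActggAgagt

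In this stretch MAGEA6 differed from MAGEA3 at 1 base, MAGEA12 at 2, MAGEA1 and MAGEA4 at 6 each and MAGEA10 at 12. Over the whole coding sequence MAGEA3 and MAGEA6 were 98.1% identical, with 18 mismatches over 942 bases. MAGEA3 had 70 mismatches with MAGEA12, 80 with MAGEA2 and 159 with MAGEA4 over the aligned coding bases. MAGEA2 and MAGEA2B were 100% identical, as were MAGEA9 and MAGEA9B, XAGE1A and XAGE1B, SSX2 and SSX2B, and SSX4 and SSX4B. MAGEA10 was the most distant of the tested genes, at 61.6% to 64.1% identity with the other 7. Identity is identical bases over the longer coding sequence, so the 1107 bases of MAGEA10 lower its figures. Over aligned bases it had 232 to 254 mismatches with each. A read that fits several places was left out of the gene counts, so how much of a gene is its own sequence bears on its count. Of all stretches of 100 bases in its transcripts, MAGEA10 shared none with another gene for 88.1%, MAGEA4 for 97.6%, MAGEA1 and PAGE1 for 100% each, MAGEA12 for 96.5%, CTAG2 for 75.5%, MAGEA6 for 67.0% and MAGEA3 for 65.1%. The same share was 17.6% for MAGEA2B, 10.6% for MAGEA2 and 0% for XAGE1A. With stretches of 50 bases the shares were 100% for PAGE1, 92.7% for MAGEA4, 84.1% for MAGEA10, 56.9% for CTAG2, 46.1% for MAGEA6 and 43.5% for MAGEA3. The shares of CTAG2, MAGEA6 and MAGEA3 thus depended on the length chosen. The 4 genes with the largest differences between the groups (MAGEA10, MAGEA4, CTAG2 and PAGE1) therefore rested mostly on sequence of their own, whereas the counts of MAGEA2, MAGEA2B and the XAGE1 pair are uncertain and may be too low.

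Among the 62 members, 27 had 0 counts in every library, 18 had 1 to 10 counts summed over the 6 libraries and 17 had more than 10. Without SSX2IP the last number was 16. Just inside that limit lay XAGE1A with 12 counts, SSX1 with 12 and MAGEA11 with 18, and just outside it MAGEA8 with 8, GAGE13 with 6 and PAGE2B with 6. Of the 12 MAGEA genes, 9 passed 10 counts, against 0 of 11 MAGEB genes, 0 of 3 MAGEC genes, 1 of 13 GAGE genes, 2 of 5 XAGE genes, 2 of 6 PAGE genes, 1 of 3 CTAG genes and 1 of the 8 SSX genes that remain without SSX2IP. The line thus held reads of the MAGEA cluster and of single genes of the PAGE and CTAG families, and next to none of MAGEB and MAGEC, whose summed counts over all libraries were 5 and 9. In those 2 families 86.0% to 100% of each gene's 100-base stretches occurred in no other gene. Of the 27 members at 0, 12 had more than 90% of such stretches to themselves and 13 had less than 25%. A count of 0 in a library allows up to 3 counts, which is 0.142 to 0.189 CPM (the count scaled to a common library size), and such limits cover counting error only.

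**Figure D1:**
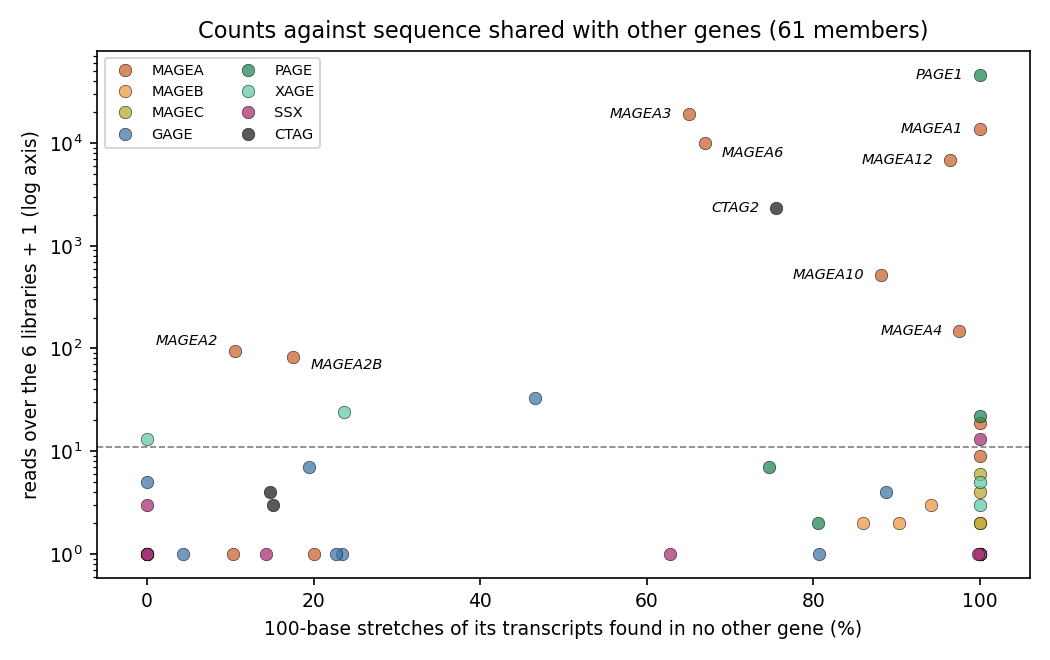
Reads summed over the 6 libraries plus 1 (vertical, log axis) against the percent of 100-base stretches of a gene's transcripts that occur in no other gene (horizontal) for the 61 members without SSX2IP, one point a gene, coloured by family. The dashed line marks the limit of 10 counts. MAGEA3 and MAGEA6 are high with 65.1% and 67.0% unique stretches, and many genes at 0 lie at both ends of the horizontal axis.

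Depth was 24660798 to 30732841 reads per library, of which 16617644 to 21590817 fell in genes. Reads at several places made up 6.49% to 8.73% of a library. The prostate luminal marker KLK3, which encodes PSA, was high, at 5092 to 5238 CPM in the vector libraries and 4307 to 5847 in the knockout libraries. Counts of CDK12 itself did not separate the groups, at 60.2, 48.0 and 57.1 CPM in the vector group (libraries 1 to 3) and 60.8, 56.9 and 56.5 CPM in the knockout group (edgeR adjusted p = 0.709). A small edit can leave the transcript in place, so the counts give no check of the knockout, and every direction below rests on the labels. Knockout library 2 stood apart from the other 5. Its correlations of log2 CPM with them were 0.9161 to 0.9499, against 0.977 to 0.990 among the others, its scaling factor was 0.737 against 1.04 to 1.10, and genes with short transcripts were high in it. The typical spread between libraries of a group (edgeR's biological coefficient of variation) was 24.2% with it and 7.997% without it, so calls are given with it and without it.

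Of the 62 members, 11 passed the filter on low counts and were tested with edgeR's quasi-likelihood test, fitted over all genes, and p-values were adjusted by the Benjamini-Hochberg method (threshold 0.05). The filter counts libraries with enough reads, so a gene could enter through the knockout group alone, as MAGEA4 did with all 6 libraries. With all 6 libraries 1 member passed as higher in the knockout, MAGEA10, against 0.418% of all 15783 genes tested, and 0 passed as lower, against 0.177%. Another 4 members had an unadjusted p under 0.05 without passing, 3 of them higher (MAGEA4, CTAG2 and PAGE1) and 1 lower (SSX2IP). The share of all genes at that unadjusted p is not given. Such counts, here and below, are therefore a description and no result about a list. Voom called the same number in each direction, 1 and 0, against 66 higher and 39 lower of all 15783 genes. DESeq2 called 3 higher (MAGEA10, MAGEA4 and CTAG2), against 3.07% of its genes, and 0 lower. Without knockout library 2, edgeR called 4 members higher (MAGEA10, MAGEA4, CTAG2 and PAGE1), where 10.2% of all genes were called higher, and 1 lower (SSX2IP), where 8.88% were called lower. In 4 of the 11 tested members every knockout library lay above every vector library, and in 1, SSX2IP, below, as did 20.4% and 19.0% of all tested genes. The median log2 fold change over the 11 was -0.07 with all libraries and 0.12 without knockout library 2, beside 0.00 and -0.01 over all genes tested. Since the set was proposed with this contrast known, nothing about the families is read from these counts. Among the 11, MAGEA10, MAGEA4, CTAG2 and PAGE1 had higher values in every knockout library and the 4 abundant MAGEA genes did not. In bulk RNA, more cells that make a transcript and more transcript in each cell cannot be told apart.

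**Figure D2:**
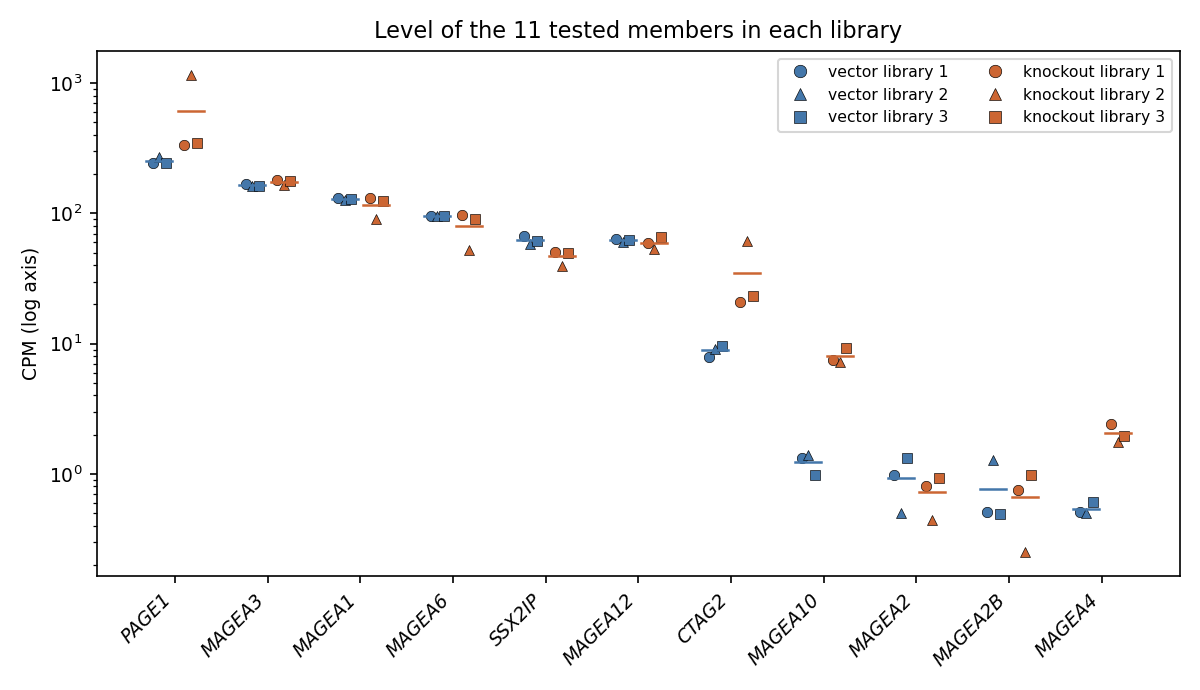
CPM (log axis) of the 11 tested members in each library, with vector libraries in blue, knockout libraries in orange, a symbol for each library number and a line at the group mean. MAGEA10, MAGEA4, CTAG2 and PAGE1 have every knockout library above every vector library, SSX2IP has every one below, and knockout library 2 is far above the others for PAGE1 and CTAG2.

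MAGEA10 showed the largest difference of the tested members. It encodes a MAGE-A protein of testis, presented to T cells in several tumour types, and lies at chrX:152133310-152138578 (GRCh38, minus strand, ENSG00000124260.12). Its counts were 26, 25 and 18 in the vector group and 160, 115 and 178 in the knockout group, in the order of library numbers used throughout. In CPM these were 1.33, 1.40 and 0.989 against 7.55, 7.24 and 9.20, with means of 1.24 ± 0.220 and 7.998 ± 1.06 (SD, n = 3 each). The groups did not overlap, and knockout library 2 lay close to library 1 here. The ratio of mean CPM was 6.45, and the log2 fold change was 2.68 ± 0.24 (SE, edgeR adjusted p = 0.00913). When knockout library 2 was left out it was 2.74 ± 0.24 (edgeR adjusted p = 2.04e-07). The call was lost when any 1 vector library or knockout library 3 was left out, with edgeR adjusted p of 0.0570 to 0.123 and log2 fold changes of 2.54 to 2.78.

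MAGEA4, the target of engineered T cells in sarcoma, lies 221 kb from MAGEA10, at chrX:151912509-151925170 (plus strand, ENSG00000147381.12). It had 10, 9 and 11 counts in the vector libraries and 51, 28 and 38 in the knockout libraries, or 0.512, 0.504 and 0.604 CPM against 2.41, 1.76 and 1.97 CPM. Every knockout library was above every vector library, but at these low counts the gene did not pass with all libraries. The fitted difference was 1.91 ± 0.31 on the log2 scale (SE, adjusted p = 0.0535 with edgeR). Vector library 2 was under the filter on low counts, so MAGEA4 entered this fit through the knockout libraries, where it is high. Its p-value there is a description only. MAGEA4 passed when knockout library 2 was left out, at 2.00 ± 0.40 (edgeR adjusted p = 0.00149), and the ratio of mean CPM was 3.79 with that library and 4.05 without it. Relative to MAGEA10, MAGEA4 counts were 0.385, 0.360 and 0.611 in the vector libraries and 0.319, 0.244 and 0.214 in the knockout libraries, so MAGEA10 drew more reads in each library, without regard to length.

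The 4 abundant MAGEA genes, MAGEA3, MAGEA1, MAGEA6 and MAGEA12, stood at similar levels in both groups, apart from lower values of MAGEA1 and MAGEA6 in knockout library 2. MAGEA3 and MAGEA6, which with the ligase TRIM28 target the energy sensor AMPK for degradation, are the best studied of them, and MAGEA1 was the first tumour antigen of this kind to be cloned. MAGEA3 (chrX:152698752-152702347, ENSG00000221867.9) had 169, 162 and 163 CPM in the vector libraries and 180, 166 and 178 in the knockout libraries, and the fitted log2 difference was 0.09 ± 0.11 (SE, adjusted p = 0.631 with edgeR). The knockout values reached only just beyond the vector ones, and library 2 lay within their range. MAGEA1 had 133, 126 and 128 CPM against 131, 91.4 and 125, and MAGEA6 had 95.3, 95.2 and 95.9 against 97.2, 52.3 and 91.2. MAGEA12 was at 63.6, 60.4 and 62.9 CPM against 59.2, 53.5 and 65.8. None of the 3 passed, with log2 fold changes of -0.16 ± 0.16, -0.25 ± 0.23 and -0.07 ± 0.12 (SE). With library 2 left out these were -0.02, -0.02 and -0.0016, and MAGEA3 was at 0.12. The ratio of MAGEA6 to MAGEA3 counts was 0.564 to 0.588 in the vector libraries and 0.540, 0.315 and 0.512 in the knockout libraries, so the fall of MAGEA6 in library 2 was not shared by its closest relative. MAGEA6-DT, a transcript annotated divergent to MAGEA6, was also low in that library, with 32, 39 and 41 counts in the vector group and 50, 3 and 37 in the knockout group. MAGEA3-DT went the other way in library 2, with 164, 170 and 129 counts against 182, 370 and 177. Neither passed the test, and what set library 2 apart was not tested.

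MAGEA2 and MAGEA2B, which share their whole coding sequence, had 7 to 24 and 4 to 23 counts per library, and their groups overlapped. Their log2 fold changes were -0.35 ± 0.48 and -0.17 ± 0.61 (SE), errors larger than the differences themselves. MAGEA11, known as a coactivator of the androgen receptor, had 2, 1 and 9 counts in the vector libraries and 3, 1 and 2 in the knockout libraries. It was not tested, and its ratio of knockout to vector over the pooled counts was 0.493 (exact 95% binomial interval 0.152 to 1.42). MAGEA8 had 8 counts in all, and MAGEA9 and MAGEA9B had 0. The summed MAGEA level was 464, 448 and 454 CPM in the vector libraries and 479, 373 and 473 in the knockout libraries, so the gains of MAGEA10 and MAGEA4 were small beside the family's total.

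**Figure D3:**
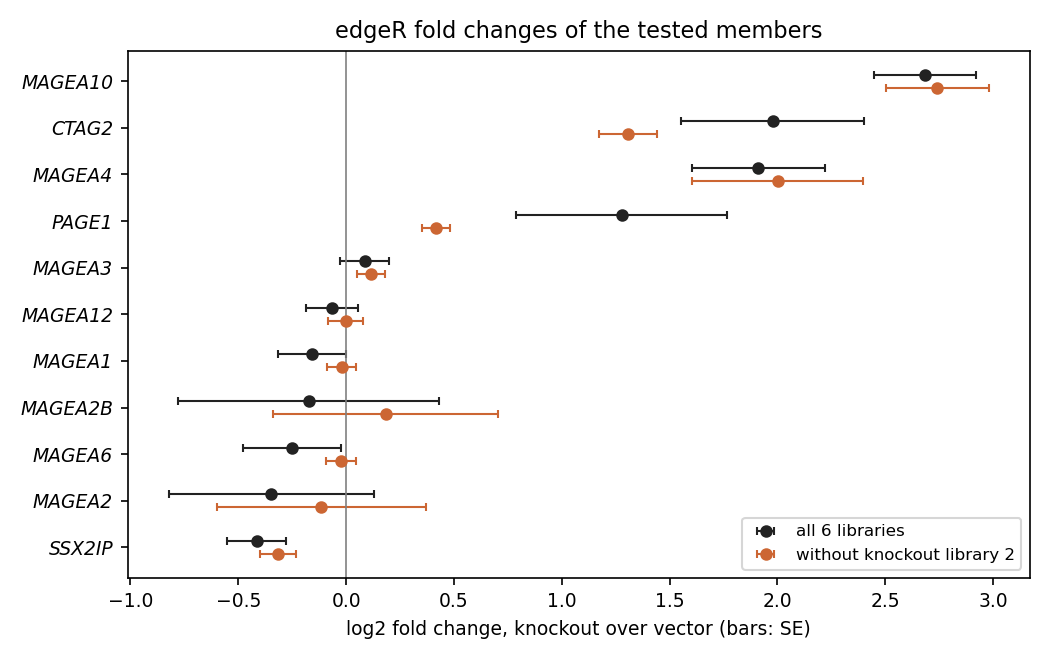
Log2 fold change of each tested member, knockout over vector, with all 6 libraries (black) and without knockout library 2 (orange), bars giving the SE from edgeR. MAGEA10 and MAGEA4 stay at 2.68 and 2.74 and at 1.91 and 2.00, while PAGE1 goes from 1.28 to 0.42 and CTAG2 from 1.98 to 1.31.

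CTAG2 and PAGE1 were higher in every knockout library too, but their size turned on library 2. CTAG2, which encodes LAGE-1, lies at chrX:154651972-154653579 (minus strand, ENSG00000126890.14). It had 154, 162 and 176 counts in the vector libraries and 443, 970 and 448 in the knockout libraries, or 7.88, 9.07 and 9.67 CPM against 20.9, 61.03 and 23.2 CPM. Knockout libraries 1 and 3 lay close together above the vector libraries, and library 2 far above both. On the log2 scale the fitted difference was 1.98 ± 0.42 with all libraries (SE, adjusted p = 0.111 with edgeR) and 1.31 ± 0.13 without library 2 (adjusted p = 1.57e-06). Its near copies CTAG1A and CTAG1B, which encode NY-ESO-1, had 0 counts in the vector group and 3 and 2 in the knockout group, at or under the limit of detection. Only 14.7% of the 100-base stretches of CTAG1A occur in no other gene, so reads of NY-ESO-1 may be missing from the counts.

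PAGE1, a GAGE-like gene named for its expression in prostate and testis, was the most abundant member. It lies at chrX:49687450-49695993 (minus strand, ENSG00000068985.5), far from the MAGEA cluster on the other arm. It had 4730, 4888 and 4449 counts in the vector libraries and 7065, 18522 and 6675 in the knockout libraries. Mean levels were 253 ± 17.6 CPM and 615 ± 477 CPM (SD, n = 3 each), and the knockout libraries held 334, 1165 and 345 CPM. Most of the difference between the means was library 2. The log2 fold change was 1.28 ± 0.49 (SE, edgeR adjusted p = 0.217) with it and 0.42 ± 0.07 (edgeR adjusted p = 0.000206) without it, and the ratio of mean CPM went from 2.43 to 1.34.

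Transcript length was set beside these sizes. PAGE1 has a transcript of 665 bases and CTAG2 of 993, while MAGEA4 has 1773 and MAGEA10 2741. A shift is the log2 of CPM plus 0.5 in a library, less the mean of that value over the vector libraries. The added 0.5 shrinks the shifts of low genes such as MAGEA4, MAGEA10 and MAGEA2B, so their sizes do not compare directly with those of abundant genes. In knockout library 2 the median shift was 0.62 for the 1711 tested genes with transcripts of up to 1000 bases and -0.36 for those over 4000. In libraries 1 and 3 it was 0.09 and 0.15 for the short class. The class of 1000 to 2000 bases also rose in library 2, by a median of 0.52, but most tested members in it did not. There MAGEA3 was at 0.01, MAGEA12 at -0.22, MAGEA1 at -0.50, MAGEA2B at -0.69 and MAGEA6 at -0.86. MAGEA4, in the same class, was above that median at 1.12, its lowest shift among the knockout libraries. Shifts of PAGE1 in knockout libraries 1 to 3 were 0.40, 2.20 and 0.45, and those of CTAG2 were 1.2, 2.72 and 1.34, each above the median of its length class in the same library. MAGEA10 shifted by 2.22, 2.16 and 2.49, with no such peak in library 2. When counts were corrected for the length and GC content of transcripts, an alternative chosen after seeing the data, the log2 fold change of PAGE1 was 0.86 with all libraries and 0.34 without library 2. Under the same correction CTAG2 was at 1.38 and 1.12, MAGEA4 at 1.74 and 1.91 and MAGEA10 at 2.70 and 2.72.

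Of the other families, a handful of genes gave more than 10 counts and none was tested. XAGE1B had 2, 1 and 0 counts in the vector libraries and 7, 8 and 5 in the knockout libraries, so its groups did not overlap. Over the pooled counts its ratio of knockout to vector was 6.57 (exact 95% binomial interval 1.95 to 34.5, counting error only). Its copy XAGE1A, with an identical coding sequence, had 2, 1 and 0 against 3, 4 and 2 counts, a ratio of 2.96 (0.738 to 17), and on the CPM scale its groups too did not overlap, though both held a library with 2 counts. PAGE4, a disordered stress-response protein of the prostate, had 0, 3 and 4 against 1, 9 and 4 counts, a ratio of 1.97 (0.745 to 5.77). GAGE2A had 3, 5 and 8 against 3, 8 and 5 counts, a ratio of 0.986 (0.461 to 2.11). SSX1, a fusion partner of SS18 in synovial sarcoma, had 9, 0 and 0 against 0, 2 and 1 counts, and its interval of 0.0572 to 1.32 includes no change. PAGE2B had 5 of its 6 counts in knockout library 3 alone. XAGE1B was the one of these whose interval left out a ratio of 1, and it was picked out after its values were seen.

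SSX2IP, on chromosome 1 at 84643707 to 84690803, was lower in every knockout library. Its log2 fold change was negative, as were those of 5 of the 10 tested antigen genes, none of which passed. It had 66.7, 58.7 and 62.0 CPM in the vector libraries and 51.0, 39.6 and 49.9 in the knockout libraries, with no overlap. It fell by 0.31 ± 0.08 on the log2 scale when library 2 was left out (adjusted p = 0.0129 with edgeR), and with all libraries the value was -0.42 ± 0.14, which did not pass (adjusted p = 0.204).

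Per kilobase of exon, the vector levels of the 11 tested members ran from PAGE1 at 381 ± 26.5 CPM per kb (SD, n = 3), place 69 of 12276 tested protein-coding genes, down to MAGEA4 at 0.175 ± 0.0181, place 11697. Untested members had too few counts to be placed. Between these ends came MAGEA3 at 92.1 ± 2.10, MAGEA1 at 75.5 ± 1.85, MAGEA6 at 51.2 ± 0.202, MAGEA12 at 32.0 ± 0.868, CTAG2 at 8.94 ± 0.917 and SSX2IP at 7.23 ± 0.469. The next were MAGEA10 at 0.428 ± 0.0758, MAGEA2 at 0.410 ± 0.180 and MAGEA2B at 0.316 ± 0.187, whose levels differed by less than the SD of MAGEA2 or of MAGEA2B. In the knockout libraries MAGEA10 reached 2.76 CPM per kb, still under CTAG2 and SSX2IP. These levels may be too low where a gene shares sequence, so the order of MAGEA3, MAGEA6 and the MAGEA2 pair against the rest is uncertain. Of all reads of the 61 X-linked members, MAGEA1, MAGEA3, MAGEA6 and MAGEA12 together held 60.7% to 64.4% in the vector libraries and 56.0%, 22.7% and 54.6% in knockout libraries 1 to 3.

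The promoter stretches were looked at because abundant, low and silent MAGEA genes stand side by side in 1 cluster. Each is 120 bases that end just before the gene's outermost annotated start, printed 5′ to 3′ on the gene's strand, from RefSeq on GRCh38.p14. The table held promoter windows for 54 of the 62 members, without MAGEA10, MAGEA1 and CTAG2 among others. Capitals mark GGATGTGA or CACGTG, searched on both strands. GGATGTGA was picked after the MAGEA windows were seen, so its frequency there is a description of that choice, and CACGTG is the palindromic E-box.
MAGEA4, chrX:151912354-151912473, plus strand: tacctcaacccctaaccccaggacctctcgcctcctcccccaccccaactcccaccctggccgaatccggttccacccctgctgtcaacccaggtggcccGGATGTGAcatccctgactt
MAGEA3, chrX:152698632-152698751, plus strand: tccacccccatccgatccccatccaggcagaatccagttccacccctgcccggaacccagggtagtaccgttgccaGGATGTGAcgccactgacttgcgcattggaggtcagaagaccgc
MAGEA6, chrX:152769748-152769867, minus strand: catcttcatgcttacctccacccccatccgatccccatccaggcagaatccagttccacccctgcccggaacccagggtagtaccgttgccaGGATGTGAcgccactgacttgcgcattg
MAGEA12, chrX:152733637-152733756, plus strand: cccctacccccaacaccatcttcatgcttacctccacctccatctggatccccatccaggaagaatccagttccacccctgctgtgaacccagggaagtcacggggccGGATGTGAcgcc
MAGEA2, chrX:152753885-152754004, minus strand: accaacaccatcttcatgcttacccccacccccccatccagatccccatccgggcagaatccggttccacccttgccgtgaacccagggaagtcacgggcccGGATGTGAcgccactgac
PAGE4, chrX:49829140-49829259, plus strand: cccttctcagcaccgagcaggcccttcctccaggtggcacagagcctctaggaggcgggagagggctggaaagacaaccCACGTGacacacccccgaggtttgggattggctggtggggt
PAGE1, chrX:49695994-49696113, minus strand: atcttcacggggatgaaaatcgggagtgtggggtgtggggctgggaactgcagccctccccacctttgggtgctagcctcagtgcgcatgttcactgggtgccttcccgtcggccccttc

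GGATGTGA stood in the window of all 10 MAGEA genes that had one, from MAGEA3 with 19066 counts to MAGEA9 with 0, so its presence did not follow the level. It was in 18 of 70 member windows of 300 bases (25.7%), in 1.16% of all 35116 windows and in 3.32% of those on the X chromosome. The only other members with it were MAGEB2 and MAGEB16, both at 0 counts. CACGTG was in 19 of the 70 (27.1%), against 7.26% of all windows and 9.71% on the X chromosome, and these belonged to all 12 GAGE genes with a window, 4 PAGE genes (in PAGE1 outside the printed stretch) and XAGE3. The windows of MAGEA3 and MAGEA6 were identical over all 300 bases, although their counts parted in knockout library 2. A match of letters is not a bound site, and no binding or methylation was measured.

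On the X chromosome MAGEA10 is the tested MAGEA gene nearest to MAGEA4, and the other tested MAGEA genes lie further along, most of them closer together than these. The tested gene GABRE lies between MAGEA4 and MAGEA10, and GABRA3 lies just beyond MAGEA10. Without library 2 their log2 fold changes were -0.23 and 0.25 (edgeR adjusted p = 0.454 and 0.566). From the MAGEA4 start, MAGEA10 was 221 kb away, MAGEA3, MAGEA2B, MAGEA12, MAGEA2 and MAGEA6 were 786 to 854 kb away and MAGEA1 was 1267 kb away. The near-silent MAGEA8, MAGEA9, MAGEA9B and MAGEA11 lay 2031 to 2331 kb on the other side. Within 500 kb of the tested members on the X chromosome the annotation holds 144 other genes, of which 51 were tested. With edgeR and all libraries 0 of the 51 passed (2 higher with DESeq2, against 3.07% of its genes, and 0 with voom). At an unadjusted p under 0.05, 9 were higher and 2 lower, with no share of all genes given for that p. With library 2 left out, edgeR called 6 higher (HSPB1P2, CSAG1, DUSP9, RPL10, LAGE3 and FUNDC2) and 2 lower (PLXNA3 and BRCC3) of the 51, where 10.2% of all genes were called higher and 8.88% lower. HSPB1P2 had 1, 4 and 9 counts in the vector libraries and 32, 39 and 12 in the knockout libraries. It passed the filter through the knockout libraries, where it is high, so its call is a description only. CSAG1 lies between members of the MAGEA3 group and changed by 0.29 ± 0.09 (SE, edgeR adjusted p = 0.0350). LAGE3, a broadly expressed relative of CTAG2, changed by 0.50 ± 0.07 (edgeR adjusted p = 7.6e-05).

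**Figure D4:**
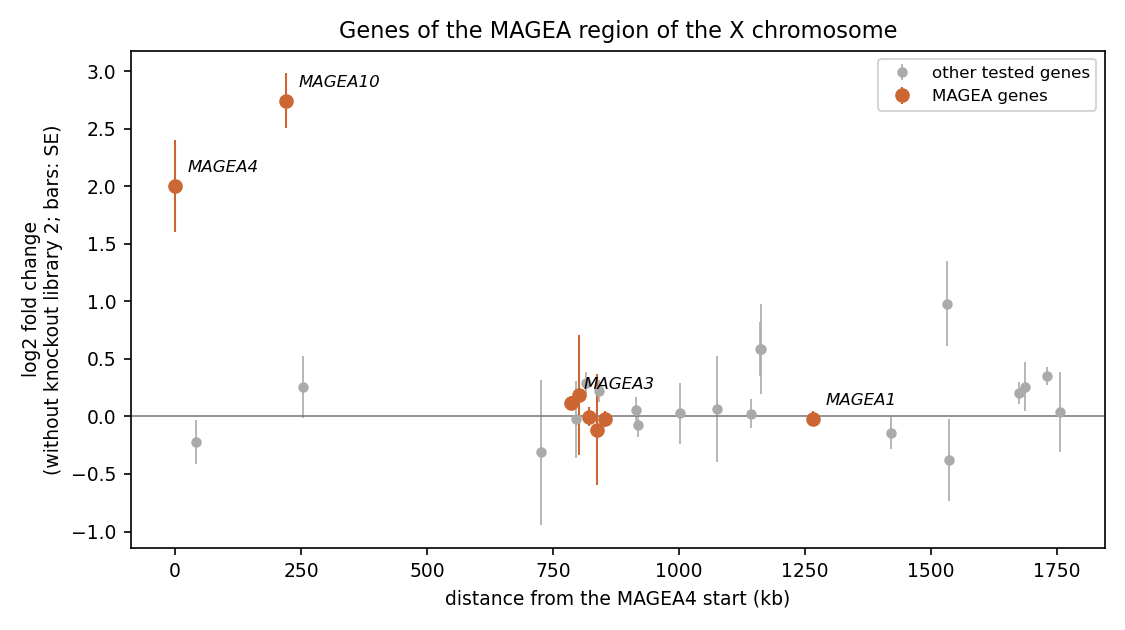
Log2 fold change without knockout library 2 (vertical, bars giving the SE) against distance from the MAGEA4 start in kb (horizontal) for the 8 tested MAGEA genes (orange) and the 20 other tested genes of the region (grey). MAGEA4 and MAGEA10 stand at 2.00 and 2.74, while the grey genes lie between -0.38 and 0.98 and the other 6 MAGEA genes near 0.

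Cancer-testis genes outside the symbol rule were read from a fixed list of 48 further X-linked genes, compiled with earlier results known. Of these, 20 were at 0 in all libraries and 10 were tested. With edgeR and all libraries 0 passed (3 higher with DESeq2, against 3.07% of its genes, and 0 with voom). At an unadjusted p under 0.05, 8 were higher in the knockout, with no share of all genes given for that p. Among them VCX3B, with 13, 5 and 4 counts in the vector libraries against 15, 40 and 14, passed the filter through the knockout libraries, where it is high. The median log2 fold change over the 10 was 1.04, beside 0.00 over all genes. After library 2 was left out, 5 of the 10 were called higher and 0 lower, where 10.2% and 8.88% of all genes were, and the median was 0.71. CT45A10, of the CT45 array, had 3.79, 3.19 and 3.46 CPM in the vector libraries and 6.18, 8.12 and 7.19 in the knockout libraries (log2 fold change 1.04 ± 0.20, SE, edgeR adjusted p = 0.0811). VCX2, of a family with nearly identical copies, had 0.768, 0.728 and 0.769 CPM against 2.97, 16.3 and 2.79. SAGE1 had 2.46, 2.02 and 2.58 CPM against 4.15, 3.52 and 6.88, and VCX3A had 1.38, 1.74 and 1.26 against 3.21, 11.6 and 2.53. The groups of each of these 4 did not overlap, where 20.4% of all tested genes lay wholly higher, and the VCX genes had their highest value in library 2, as PAGE1 and CTAG2 did.

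Among 77 autosomal germline genes, 21 were at 0 and 22 were tested. With edgeR 0 passed (2 higher with DESeq2, against 3.07% of its genes, and 0 with voom). At an unadjusted p under 0.05, 3 were higher and 2 lower, with no share of all genes given, and the median was 0.04. BRDT, the testis bromodomain protein, had 0.819, 0.728 and 1.10 CPM in the vector libraries and 3.07, 6.61 and 3.72 in the knockout libraries (log2 fold change 2.33 ± 0.38, SE, edgeR adjusted p = 0.0568). MOV10L1, a helicase of the piRNA pathway, had 0.358, 0.896 and 0.220 CPM against 1.94, 2.77 and 1.86. It passed the filter through the knockout libraries, where it is high, so its test is a description only. In the other direction TFAP2C, a germ-cell transcription factor, had 37.0, 29.1 and 32.8 CPM against 27.3, 19.3 and 23.4. In the fit of 5 libraries, 3 of 24 tested genes were called higher and 2 lower, shares near the 10.2% and 8.88% of all genes. The broadly expressed MAGE genes, 4 of 11 tested, had 0 calls with edgeR, DESeq2 and voom and 0 at an unadjusted p under 0.05, with MAGED1 at a log2 fold change of 0.01 ± 0.12 (SE). In the fit without library 2, 1 of the 4 passed as higher, MAGEF1, at 0.23 ± 0.06 (SE, adjusted p = 0.0178 with edgeR).

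Genes that silence or partner the antigens were read in the same way. Of 23 genes of DNA methylation, 21 were tested and 0 passed with edgeR, DESeq2 or voom, with 1 at an unadjusted p under 0.05, HELLS, a remodeller needed for methylation, at -0.59 ± 0.21 (SE, edgeR adjusted p = 0.211). Their median was -0.26. When library 2 was left out, 0 of 22 passed as higher and 2 as lower, HELLS at -0.39 and DNMT1, the maintenance methyltransferase, at -0.20, near the 8.88% of all genes called lower. All 40 repressors of germline genes were tested, 0 passed with the same tools, 3 had an unadjusted p under 0.05, all lower, and the median was -0.09. In the fit without library 2, 5 of the 40 fell, not far from the 8.88% of all genes called lower: CBX5 (HP1 alpha, -0.42), MORC2, a partner of the HUSH complex (-0.42), SMCHD1 of the inactive X (-0.50), KDM5C (-0.22) and again DNMT1. Of the 20 partners of MAGE and SSX proteins, 19 were tested, 0 passed with the 3 tools and 4 had an unadjusted p under 0.05. Without library 2, 4 of the 19 fell, beside the same 8.88%: PRKAA1, the AMPK subunit that MAGEA3 and MAGEA6 target (-0.38), KAT2B (-0.68), EP300 (-0.51) and SS18 (-0.33).

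Marker genes of other cells were read beside these results. Of 16 germ cell markers, 8 were at 0 in every library, among them PRM1, PRM2, DAZL and STRA8, and DDX4 had 1 count. Their summed level was 9.98 to 12.1 CPM in the vector libraries and 5.41 to 9.77 CPM in the knockout libraries. Most of it was SYCP3, except in knockout library 2, where SYCP3 was at 2.33 CPM. Of the 4 tested, 0 passed with edgeR in either fit, with DESeq2 or with voom, or had an unadjusted p under 0.05 with all libraries. Of 15 stromal and immune markers, 3 were at 0, and the sum was 28.7 to 30.2 CPM against 32.3 to 41.5 CPM. Of the 5 tested, 0 passed with edgeR and all libraries (3 had an unadjusted p under 0.05, and DESeq2 and voom each called 1 lower). Over all genes DESeq2 called 216 of 16179 lower and voom 39 of 15783. Without library 2 VWF passed as higher and COL1A2, with 52 counts in the vector group and 0 in the knockout group, as lower. COL1A2 entered that fit through the vector libraries, where it is high, so its call is a description only. In that fit 10.2% of all genes passed as higher and 8.88% as lower. The 11 basal and mesenchymal markers summed to 124 to 155 CPM against 144 to 281 CPM, with VIM at 4.42 to 5.49 CPM against 8.27 to 14.3 and TP63 at 0. Of the 4 tested, 0 passed with edgeR and all libraries (1 had an unadjusted p under 0.05, DESeq2 called 1 higher, against 3.07% of its genes, and voom 0). Without library 2, 2 passed as higher, VIM and FN1, beside the same 10.2% of all genes. Among 15 prostate luminal markers, TRPM8 and SLC45A3 passed as lower, with log2 fold changes of -1.24 and -1.08 (adjusted p = 0.0375 and 0.0440, edgeR). Over all genes 0.177% passed as lower in that fit. DESeq2 and voom each called 3 of the 15 lower, against 216 of 16179 and 39 of 15783 genes. Without library 2 edgeR called 8 lower, among them STEAP2 at -0.44 and FOXA1 at -0.37, and 0 higher. The shares of all genes in that fit were 8.88% lower and 10.2% higher. What part these shifts had in the antigen genes was not tested.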

How the data were processed

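Per the labels' protocols, RNA was extracted with an RNeasy kit and libraries were made with a SMARTer kit. FastQC, STAR and GRCh38 are named per the submitters' processing notes, with versions and the annotation release not given in the sources used here. The deposited files hold raw read counts for each gene, in 1 unstranded and 2 stranded columns. They also hold 4 summary rows, which stayed out of library sizes and tests: 4.07% to 5.51% of a library's reads were unmapped, 6.49% to 8.73% multimapping, 3.62% to 7.45% outside genes and 11.1% to 14.4% ambiguous between genes. The stranded sums had ratios of 1.02 to 1.04, so the unstranded counts were used, which do not separate a gene from an antisense transcript.

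Counts were analysed with edgeR 4.0.16 in R 4.3.3 (filterByExpr, TMM scaling, robust quasi-likelihood fit, no block), with CPM scaled by TMM and SE as the log2 fold change over the square root of F. Alternatives were DESeq2 1.42.0, voom from limma 3.58.1, other scalings, no filter, a replicate block and each library left out. The test was tried on simulated counts. Exact binomial intervals used pooled counts of a group.

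Gene names came from a name table (62672 of 62696 matched), and coordinates, gene type and sequences from GENCODE 29, which need not be the annotation the authors counted on. The printed coding stretch came from an alignment with MAFFT 7.526, and coding identities from pairwise global alignments with Biopython 1.88. Every member over 10 counts is named, up to 4 genes of a list by adjusted p, and neighbours with a call. KLK3, DNMT1, SS18, FOXA1, GABRE, GABRA3 and the markers at or near 0 were named after their values were seen. The members and lists were chosen with earlier results of these data known.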

Additional observations from a re-analysis of the deposited data

How the results depend on the processing

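Of 165 log2 fold changes of the 11 tested members under 15 alternatives, 148 kept their side of the threshold, 144 of them with their sign, 12 passed only under the alternative, 5 (all MAGEA10) no longer passed and 0 that had passed reversed. The other 4 were of MAGEA3 and MAGEA2B, which never passed and kept their sign in 14 and 12 of 15. MAGEA10 ranged from 2.54 to 2.78 (adjusted p up to 0.123, called in 10 of 15), MAGEA4 from 1.74 to 2.00 (4 of 15), CTAG2 from 1.12 to 2.25 (4) and PAGE1 from 0.34 to 1.58 (2).

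Members called higher numbered 1, and 2 with no filter (MAGEA10 and MAGEA4), 3 with DESeq2, 0 to 4 when each library was left out, 2 with the transcript length and GC correction (MAGEA10 and CTAG2) and 4 with that correction and without knockout library 2. Members called lower went from 0 to 1 (SSX2IP) without knockout library 2, with or without that correction, a range of 0 to 1 over the left-out libraries. Over all genes 94 were called, and 363 with no filter, 712 with DESeq2, 160 with the correction, 3122 with it and without knockout library 2, and 4 to 3123 when each library was left out. Members over 10 counts numbered 17, but 11 with the limit in at least 1 library, 8 in every library, 11 as the mean, and 15 to 17 when each library was left out. Causes were not tested.

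The replicate block left 5 genes called in all and 0 members, with MAGEA10 at adjusted p = 0.0730. Libraries of the same number correlated at 0.135, 0.194 and 0.0841 in their deviations, against -0.193 to 0.0762 for different numbers. Each library correlated best with its own number. These low values cannot decide whether the numbers pair the libraries, so the fits with and without the block both stand.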
